A study of Drosophila melanogaster with 2 samples.

Results

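The peaks described here lie at internal alternative promoters, the start sites from which a gene makes shorter transcripts inside or downstream of its first promoter. For the transcription factor charlatan, 4537 peak summits met the threshold on the irreproducible discovery rate (IDR), and 367 of them (8.09%) fell in this class, in 306 genes. A summit was a member if a protein-coding gene had a transcription start site (TSS) no more than 500 bp away, if all such TSSs within 1000 bp belonged to 1 gene, and if the nearest lay more than 500 bp downstream of that gene's most upstream TSS. The rule used positions and the passing of the threshold, and no other measured value.

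Whole Drosophila melanogaster embryos, of both sexes and aged 0 to 24 h, were used for ChIP-seq, the sequencing of DNA that is precipitated with a protein bound to it. They carried a stable transgene encoding chn, the charlatan gene, with GFP at the C-terminal end, and the protein was precipitated through GFP. There was 1 group, with 2 biological replicates and no second genotype, stage or treatment. The embryos mix tissues of every kind and a day of development, so the cells in which a site was bound are not known.

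Charlatan is a nuclear protein with C2H2 zinc fingers, known for its part in the development of the fly's sensory organs and nervous system. Many fly genes carry more than 1 promoter, and each can start transcription in other tissues or at other stages. An internal start site removes the first exons, which leaves the protein unchanged where those exons are non-coding and gives it another N-terminal end where they hold the start codon.

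Sets of peaks were set side by side with the members. The weaker internal peaks are the 1037 summits of the pooled list of both replicates that meet the same position rule and overlap no thresholded peak, in 730 genes, of which 108 also have a member. By its label, that list holds peaks and background as input for the IDR step. Some of the 1037 summits may therefore be background and not weaker binding. The upstream-promoter peaks are the 838 thresholded summits under the same distance and isolation rule whose nearest TSS lies at, or within 500 bp of, the most upstream one, here also called the first promoter. Signal is the peak caller's value, as the authors deposited it, and is compared only within a list. Read counts are not part of these lists and the depth is therefore unknown. Differences between shares are in percentage points with 95% intervals (Newcombe, from Wilson bounds), which cover counting error over peaks and not the spread between embryos.

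The windows below run 100 bp to each side of the summit, on the strand of the gene, 5′ to 3′, on the Release 6 genome (dm6). They are a selection from the 12 strongest members, made to show the 7-mer discussed further on, and other windows of similar strength are not shown. How many of them hold it is therefore no measure of its share. Capitals mark ACAGTGG (or CCACTGT, its reverse) and the TATA box letters TATAAA (or TTTATA).
larp window (chr3R:28326511-28326711, minus strand): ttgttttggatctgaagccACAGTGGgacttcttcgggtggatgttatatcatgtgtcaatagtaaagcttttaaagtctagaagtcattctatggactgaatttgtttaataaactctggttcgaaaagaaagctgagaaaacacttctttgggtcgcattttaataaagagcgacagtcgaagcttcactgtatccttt
Rtnl1 window (chr2L:4997539-4997739, minus strand): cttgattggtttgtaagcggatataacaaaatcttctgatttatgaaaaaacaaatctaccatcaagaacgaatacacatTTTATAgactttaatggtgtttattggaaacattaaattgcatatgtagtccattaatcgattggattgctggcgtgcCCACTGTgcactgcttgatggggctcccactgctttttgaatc
MFS10 window (chrX:13131257-13131457, plus strand): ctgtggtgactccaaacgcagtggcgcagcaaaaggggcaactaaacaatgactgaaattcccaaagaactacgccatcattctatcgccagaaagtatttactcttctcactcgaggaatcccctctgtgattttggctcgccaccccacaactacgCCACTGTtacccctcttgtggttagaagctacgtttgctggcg
spi window (chr2L:19575660-19575860, minus strand): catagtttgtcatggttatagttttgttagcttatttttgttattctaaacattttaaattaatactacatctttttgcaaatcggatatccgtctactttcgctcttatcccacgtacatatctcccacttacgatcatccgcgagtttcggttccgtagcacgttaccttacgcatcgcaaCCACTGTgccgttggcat
Fhos window (chr3L:8766059-8766259, plus strand): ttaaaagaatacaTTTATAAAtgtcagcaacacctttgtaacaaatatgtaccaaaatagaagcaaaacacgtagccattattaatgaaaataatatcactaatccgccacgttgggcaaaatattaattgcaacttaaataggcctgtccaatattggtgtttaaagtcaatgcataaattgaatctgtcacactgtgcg
Fhos is shown as a window without the 7-mer. The 7-mer lies upstream of the centre at larp and towards the start site at Rtnl1, MFS10 and spi.

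The strongest internal peaks sat upstream of a start site and ranked high in both replicates. At px, whose protein plexus limits vein formation in the wing, the signal was 1586 and ranked 3 of the 30000 pooled peaks. The value was 925.3 in replicate 1, where it ranked 4, and 667.2 in replicate 2, where it ranked 3. This summit lay in an intron 206 bp upstream of a TSS that is 47966 bp downstream of the gene's most upstream one. At CG1888 the signal was 707.9 in replicate 1 and 515.8 in replicate 2, rank 10 in each. At ph-p, which encodes a subunit of Polycomb repressive complex 1, the replicates gave 684.7 and 544.8, ranks 11 and 8. Since ph-p and its neighbour ph-d are near-identical copies, the assignment of reads between them is uncertain.

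Larp, an RNA-binding protein of the La-related family, had a peak of 566.5 in replicate 1 and 327.0 in replicate 2, at ranks 15 and 37. Rtnl1, a reticulon that shapes the endoplasmic reticulum, had 465.5 and 347.2, at ranks 34 and 33. The gene of the tagged factor itself, chn, held the next strongest, with 433.3 in replicate 1 and 351.3 in replicate 2, at ranks 43 and 29. That summit (chr2R:15128692) lay in an intron, 134 bp upstream of a TSS at position 15128826 and 13590 bp downstream of the most upstream TSS. The start codon used from that internal site is among those used from the upstream one, and the upstream site held no thresholded summit. The embryos also carry chn in the transgene, and whether reads from it added to the signal at chn was not tested. All 6 of these peaks were among the strongest 43 in each replicate.

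Next in strength came gish, which encodes a casein kinase 1 of the gamma type (400.9 and 283.8 in replicates 1 and 2), and MFS10, a transporter of the major facilitator family (389.8 and 299.6). They were followed by Fhos, a formin that builds actin filaments (311.7 and 240.7), and Fkbp14, a peptidyl-prolyl isomerase (327.6 and 219.1). The 12 strongest ended with spi, the Spitz ligand of the EGF receptor (300.3 and 215.3), and PAN3, a subunit of an mRNA deadenylase (310.0 and 200.6). Each of the 12 summits lay upstream of its TSS, between 119 bp at Fkbp14 and 481 bp at ph-p. Intron sequence held 10 of them, and those of CG1888 and MFS10 fell in non-coding exons.

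**Figure D1:**
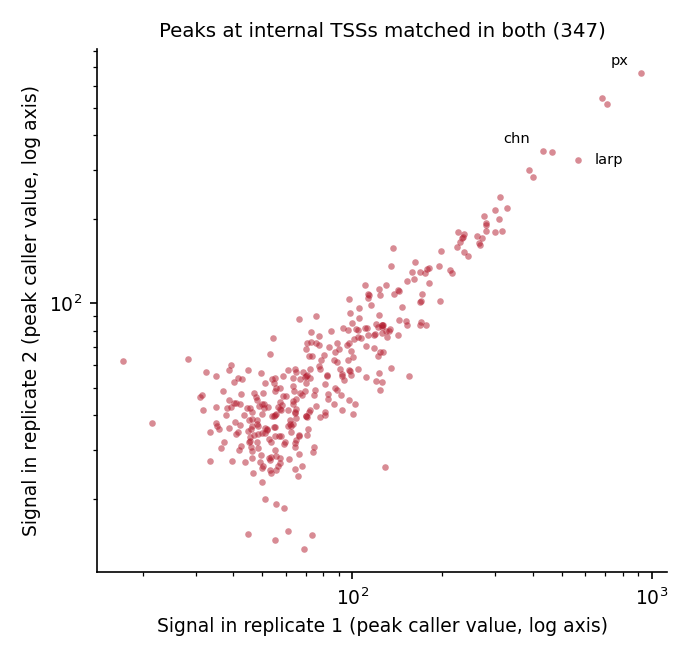
Signal of each internal-promoter peak in replicate 2 against replicate 1 (peak caller values on log axes), for the 347 members with a summit within 100 bp in both lists. The points lie along a diagonal, with px at the top right and larp and chn among the next strongest.

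Across the members the replicates placed most peaks alike. A summit within 100 bp was listed for 356 of the 367 members in replicate 1 and 358 in replicate 2. Both replicates ranked 269 members (73.3%) among their 4537 strongest, against 610 of 838 upstream-promoter peaks (72.8%), a difference of 0.50 points (-5.06 to 5.79). Among the 1000 strongest peaks the shares were 96.1% of 102 members and 100% of 185 upstream-promoter peaks, a difference of -3.92 points (-9.65 to -0.79). Over the 347 members matched in both lists, Spearman's rank correlation was 0.773 and Pearson's r of log2 signal was 0.849. These describe peaks that share libraries and were selected from their pool. In 7 members neither replicate ranked the site among its strongest.

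Peaks at internal promoters passed the threshold more often than peaks in general, and no less often than those at first promoters within counting error. Of the 1473 pooled summits at internal promoters, 367 passed the threshold (24.9%), against 838 of 3608 at upstream promoters (23.2%) and 15.1% of all 30000 pooled peaks. The difference from upstream promoters was 1.69 points (-0.87 to 4.33). Counting 1 summit per gene, the strongest, moved it to 6.31 points (2.97 to 9.75), with 32.8% of 933 genes against 26.5% of 3039. The internal class had more summits per gene, with 1473 in 933 genes against 3608 in 3039. Taking the strongest of more summits can raise such a share, and how much it adds here was not tested. The class made up 8.09% of thresholded peaks and 4.22% of the 24584 weaker ones, a difference of 3.87 points (3.07 to 4.74).

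Signal among the members ranged from 71.5 to 1586, with a median of 116.0 and quartiles of 88.5 and 190.6. It exceeded the median of all thresholded peaks in 188 of 367 members (51.2%) and in 412 of 838 upstream-promoter peaks (49.2%), a difference of 2.06 points (-4.06 to 8.16). The 100 strongest thresholded peaks held 14 members, and the 1000 strongest held 102.

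Bound internal sites were centred farther upstream of the start site than either set beside them. The median summit position was 183 bp upstream of the TSS for members (interval 165 to 206), 53 bp upstream for weaker internal peaks (32 to 75) and 88.5 bp upstream for upstream-promoter peaks (77 to 96). Summits lay upstream in 301 of 367 members (82.0%) and in 601 of 1037 weaker peaks (58.0%), a difference of 24.1 points (18.9 to 28.8). Upstream-promoter peaks had 81.4% on that side, which differed from the members by 0.63 points (-4.30 to 5.17).

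The distance from the start site set members apart from first promoters more than the side did. Within 100 bp of the TSS stood 79 members (21.5%), 311 weaker peaks (29.99%) and 387 upstream-promoter peaks (46.2%). The difference between members and upstream-promoter peaks was -24.7 points (-29.8 to -19.1). From 100 to 300 bp upstream stood 160 members (43.6%), against 26.5% of weaker peaks and 34.5% of upstream-promoter peaks, higher by 17.1 points (11.4 to 22.8) and 9.11 points (3.14 to 15.1). Among the 1000 strongest peaks the difference from upstream-promoter peaks was 9.87 points (-2.14 to 21.3), with 61.8% of 102 members against 51.9% of 185. The start sites here are annotated ones, and which of them the embryos used was not measured. The offset stood at 91.0% upstream among the 122 strongest members, 79.5% among the next 122 and 75.6% among the 123 weakest.

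**Figure D2:**
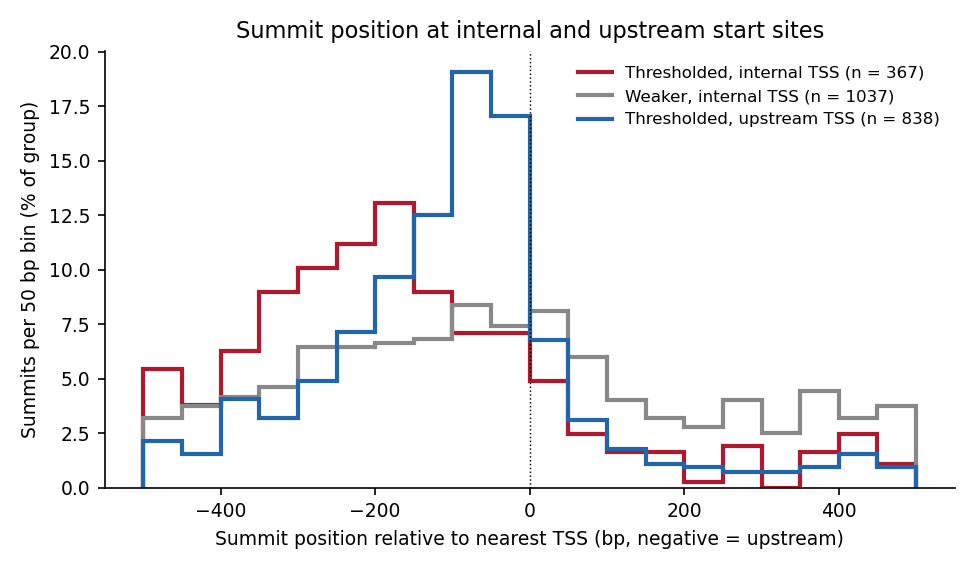
Share of summits (%) by position relative to the TSS, in bins of 50 bp, with upstream at the left, for members, weaker internal peaks and upstream-promoter peaks. Members are spread from 50 to 350 bp upstream, while upstream-promoter peaks crowd the last 100 bp before the TSS.

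Of the members, 306 lay in no exon of a protein-coding gene, and these are the ones called intronic in this report. Non-coding exons held 60 and a coding exon 1. Coding sequence therefore held 0.27% of members, against 110 of 1037 weaker peaks (10.6%), a difference of -10.3 points (-12.4 to -8.20). Exons of any kind held 16.6% of members and 38.6% of weaker peaks. Mean GC content of the 201-bp windows was 40.3% ± 8.77 in members (SD, n = 367), against 46.0% ± 9.31 in weaker peaks (n = 1037), a difference of -5.62 points (-6.68 to -4.56). Windows of the 838 upstream-promoter peaks had 40.7%. How far the coding share, GC and the side of the TSS depend on each other was not tested.

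The start sites lay a median of 4255 bp downstream of the gene's most upstream TSS (quartiles 1526 and 13034), and 117 members lay more than 10000 bp away. The farthest was at Ten-a, a teneurin of synapses and axons, 160100 bp downstream, with 66.9 in replicate 1 and 53.6 in replicate 2. Sites of dnc, the cAMP phosphodiesterase dunce, stood at 152967 and 118841 bp. Bru3, an RNA-binding protein of the CELF family, stood at 136651 bp with 134.5 and 58.7, and Svil, which binds actin, at 116883 bp with 60.7 and 36.6. Of these, the dnc site at 118841 bp was the strongest, with 279.1 and 190.5 in replicates 1 and 2.

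Of the 306 genes, 263 had 1 member and 30 had 2. Rtnl1 had 5, with signals of 811.6, 295.9, 184.5, 111.8 and 108.4, at 4 start sites from 4792 to 12339 bp downstream of the first. The protein tyrosine phosphatase gene Ptpmeg2 had 4, of 477.2, 394.2, 269.6 and 83.2, and its upstream promoter was bound as well. Dnc had 4 (468.3, 285.6, 152.8 and 129.7), and RapGAP1, which switches off the GTPase Rap1, had 4 (258.7, 134.0, 83.3 and 77.2). Larp had 3 (896.9, 214.3 and 101.0), and its weaker pair shared a start site 899 bp from the first.

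Members of 1 gene are not independent of each other. Neighbouring members stood within 300 bp of each other in 19 cases, and 5 of these were exactly 201 bp apart, such as the pairs at spi, Eip75B and dnc. Whether such a pair is 1 bound region listed as 2 summits was not tested, so the number of members in a gene may exceed its number of bound regions. At Eip75B the first had 168.2 in replicate 1 and 83.7 in replicate 2, while the second had 38.0 and 42.4.

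**Figure D3:**
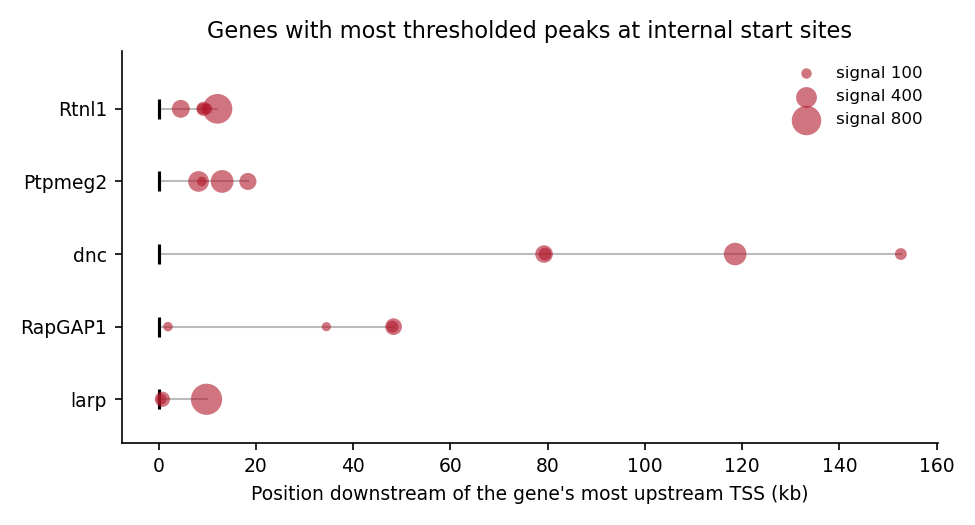
Position of each member downstream of the gene's most upstream TSS (kb), for the 5 genes with most members, with circle area set by signal and the black bar at the first TSS. Only members are drawn, and by the rule their start sites lie more than 500 bp downstream of the first TSS. Peaks at the first TSS are not shown.

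No relation between binding at the internal site and at the first promoter was detected. Among members whose start site lay over 1000 bp downstream, the most upstream TSS also had a thresholded summit in 74 of 318 (23.3%), against 236 of 887 weaker peaks (26.6%), a difference of -3.34 points (-8.59 to 2.35). Counted by gene, 1011 genes have an isolated internal TSS this far downstream and an isolated first TSS. Both sites were bound in 30 of them, the internal one alone in 137, the first alone in 137, and neither in 707. The internal site was bound in 18.0% of genes bound at the first and in 16.2% of those not bound there, a difference of 1.73 points (-3.99 to 8.66).

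Whether the internal site gives another protein start did not separate the sets beyond counting error. Transcripts of the nearest TSS used start codons other than those of the most upstream TSS in 182 of 367 members (49.6%) and 534 of 1037 weaker peaks (51.5%), a difference of -1.90 points (-7.82 to 4.03). At px, larp, Rtnl1, gish, Fhos and PAN3 the start codon differs. At CG1888, ph-p, chn, MFS10, Fkbp14 and spi it does not.

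On the X chromosome lay 91 members (24.8%), against 19.9% of weaker internal peaks and 16.5% of upstream-promoter peaks. The chromosome was picked after its values were seen. The differences were 4.93 points (0.07 to 10.1) and 8.33 points (3.404 to 13.6), and among the 1000 strongest peaks they came to 0.72 (-6.45 to 9.87) and 1.67 (-7.50 to 11.8). Without replicate 2 the difference from weaker peaks was 2.91 points (-1.82 to 8.02).

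Of the 18 motifs searched, ACAGTGG was the one whose share set members apart from both other sets. It stood in 58 of 367 member windows (15.8%, Wilson interval 12.4 to 19.9), in 46 of 1037 weaker windows (4.44%, 3.34 to 5.87) and in 58 of 838 upstream-promoter windows (6.92%, 5.39 to 8.84). The differences were 11.4 points (7.70 to 15.6) and 8.88 points (4.998 to 13.2). This 7-mer was taken from earlier work on all thresholded peaks of these data, members included, so its excess over weaker peaks is not independent evidence. It occurred in 9.30% of all 4537 thresholded windows and in 2.83% of 3144 windows of the same length centred on isolated internal TSSs.

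The share at internal promoters was also above that in other thresholded peaks. The other 4170 thresholded windows held it in 364 cases (8.73%), 7.07 points fewer (3.58 to 11.2). Promoters shared by TSSs of several genes had it in 5.18% of 1140 windows, and peaks over 500 bp from a TSS in 11.3% of 2192, differences of 10.6 points (6.96 to 14.9) and 4.54 points (0.88 to 8.81). Against upstream-promoter peaks the interval took in 0 among the 1000 strongest (6.74 points, -1.65 to 16.2) and in windows of 50 bp to each side (2.30 points, -0.21 to 5.40). Against the other 4170 windows, further motifs also stood higher in members. The GAGA repeat (GAGAGAG) differed by 8.66 points (5.35 to 12.7), CGAGAG by 5.86 (2.68 to 9.77) and CCACCC by 4.12 (0.88 to 8.07). The letters TATCGATA, ATCGATA and TATAAA stood lower in members, and the intervals of the rest took in 0.

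The share of the 7-mer was much the same in windows of low and high GC, and it was lower to either side of the summits. In windows under 40% GC it stood in 16.1% of members and 4.30% of weaker peaks, and in windows of 40% or more in 15.4% and 4.49%. Windows centred 400 bp upstream of the same member summits held it in 3.81%, and those 400 bp downstream in 2.45%. The 7-mer was taken from these same peaks. Neither its excess in both GC ranges nor its drop beside the summits is therefore independent evidence. The 7-mer stood in 19.7% of the 122 strongest members, 12.3% of the next 122 and 15.4% of the 123 weakest. Median signal was 127.9 in the 58 members with the 7-mer and 114.1 in the 309 without.

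The 65 copies in member windows are shown by the following 10, taken in order of signal from members whose sequence could be given, each with 8 bases to either side and the 7-mer in capitals, read on the strand that carries ACAGTGG.
larp site (chr3R:28326678-28326700, minus strand): ctgaagccACAGTGGgacttctt
Rtnl1 first site (chr2L:4997567-4997589, plus strand): agcagtgcACAGTGGgcacgcca
MFS10 site (chrX:13131407-13131429, minus strand): gaggggtaACAGTGGcgtagttg
spi site (chr2L:19575663-19575685, plus strand): ccaacggcACAGTGGttgcgatg
PAN3 site (chr3L:3081504-3081526, minus strand): gactgcgcACAGTGGtcgcaaaa
mrt site (chr3R:27281125-27281147, plus strand): agattcgcACAGTGGttgggggt
rudhira site (chrX:11818679-11818701, minus strand): agcgtcgcACAGTGGaacataaa
Ptpmeg2 site (chrX:9651016-9651038, minus strand): accgcaccACAGTGGgcaaagtg
Rtnl1 second site (chr2L:5005239-5005261, minus strand): gggcgattACAGTGGacacatgc
RapGAP1 site (chr2L:7530630-7530652, plus strand): gccaacgcACAGTGGgccagaca
Of the 65 copies, 28 lay on the strand of the gene and 54 upstream of the TSS. The median distance to the summit was 61 bp, and 10 copies (15.4%) lay within 30 bp of it, against 20 of 50 copies in weaker windows (40.0%) and 18 of 60 in upstream-promoter windows. In a wider scan, the densest bin ran from 60 to 120 bp downstream of the summit in the gene's direction, with 28 copies or 7.63 per 100 members. The same bin held 1.25 per 100 weaker peaks and 1.91 per 100 upstream-promoter peaks. It was picked after its values were seen, for a 7-mer taken from these same peaks. Scans around neighbouring members overlap, so 1 copy may count for 2 summits.

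**Figure D4:**
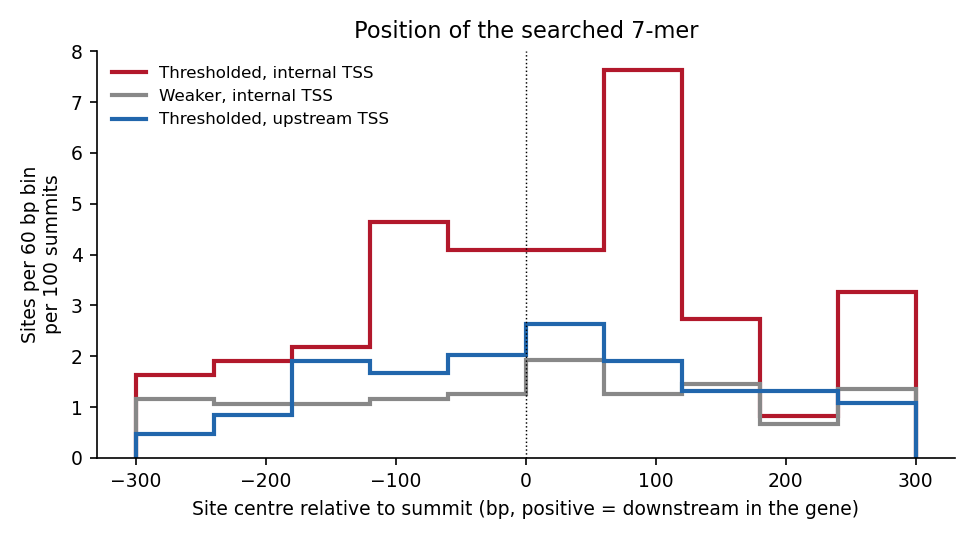
Copies of the searched 7-mer per 100 summits by distance from the summit (bp, bins of 60 bp, positive downstream in the direction of the gene), for members, weaker internal peaks and upstream-promoter peaks. The highest bin of members, from 60 to 120 bp, reaches 7.63, and the highest bin of upstream-promoter peaks reaches 2.63.

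Letters searched for elements of constitutive core promoters were scarcer in windows at internal summits than in those at first promoters. The windows are centred on the summit, and the TSS lay within 100 bp in 21.5% of members and 46.2% of upstream-promoter peaks. The sets therefore cover different positions relative to the TSS, and what this adds to the differences was not tested. The core of the DNA replication-related element (ATCGATA), the site of DREF, stood in 17 of 367 members (4.63%) and 134 of 838 upstream-promoter peaks (15.99%), a difference of -11.4 points (-14.5 to -7.82). The whole element (TATCGATA), which holds that core, stood in 1.36% and 7.76%, a difference of -6.39 points (-8.55 to -3.98). Motif 1 (GGTCACAC), bound by M1BP, stood in 2.18% and 6.21%, a difference of -4.03 points (-6.16 to -1.51). The letters CANCCCT, searched under the name motif 7, stood in 8.45% and 12.4%, a difference of -3.96 points (-7.38 to -0.08). How well these letters stand for that element was not tested. For CANCCCT the difference was -2.51 points (-5.88 to 1.32) without replicate 1 and -2.68 (-5.99 to 1.13) without replicate 2. Against weaker internal peaks the intervals of all 4 took in 0. Among the 1000 strongest peaks the intervals against upstream promoters took in 0 as well, with 102 members, and the DRE core differed there by -2.56 points (-7.67 to 3.79).

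The GAGA repeat (GAGAGAG), the site of Trl, went the other way. It stood in 53 members (14.4%), 118 weaker peaks (11.4%) and 80 upstream-promoter peaks (9.55%). The members were 4.89 points above upstream promoters (1.00 to 9.25) and 3.06 above weaker peaks (-0.78 to 7.41). It stood in 28 of the 123 weakest members (22.8%), 11 of the 122 above them (9.02%) and 14 of the 122 strongest (11.5%). In 50-bp windows to each side the difference from upstream promoters was 0.44 points (-2.10 to 3.53), and without replicate 1 it was 2.88 (-0.73 to 6.96).

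The TATA box letters stood in 24.8% of members and 18.9% of weaker peaks, 5.89 points apart (1.06 to 11.1), and in 24.3% of upstream-promoter peaks. Tramtrack's AGGAC stood in 7.63% of members and 12.4% of weaker peaks, a difference of -4.81 points (-7.96 to -1.12), and in 7.04% of upstream-promoter peaks. Neither held its direction in windows under 40% GC, where the differences from weaker peaks were -6.14 points (-14.5 to 2.51) and 0.40 points (-4.60 to 5.79). Without replicate 2 they were 3.996 points (-0.77 to 9.14) and -3.09 points (-6.21 to 0.60). The other motifs had intervals against both sets that took in 0. They were the initiator (TCAGT), the E-box (CANNTG), its palindromic form CAGCTG, the Myc-type form CACGTG, the Snail-type form CAGGTG, the N-box (CACNAG), the Zelda site (CAGGTAG), the Su(H) site (TGGGAA), the KLF or Sp box (CCACCC) and CGAGAG, which can overlap the GAGA repeat. Some of these left 0 under other settings. Without replicate 1, CAGCTG differed by -4.15 points (-7.68 to -0.14) from weaker peaks and by -4.43 (-8.06 to -0.35) from upstream-promoter peaks. With the 1000 strongest peaks, CAGGTG differed from weaker peaks by -6.24 points (-8.55 to -1.10) and CGAGAG by -8.60 (-12.2 to -2.23). Within 250 bp of a TSS, the initiator differed from them by -8.32 points (-15.6 to -0.66) and the KLF or Sp box by 7.23 (2.37 to 13.002). Both strands were searched, 95% intervals were not widened for the 18 motifs, and a match is a run of letters and not a measured site.

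Across all 4537 thresholded windows the DRE core occurred in 9.83%, the whole element in 4.78%, motif 1 in 3.06%, CANCCCT in 10.8%, GAGA in 6.48%, TATAAA in 29.7% and AGGAC in 9.15%. At the 3144 isolated internal TSSs the shares were 3.59%, 0.92%, 0.92%, 3.94%, 8.97%, 20.1% and 11.7% in the same order.

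**Figure D5:**
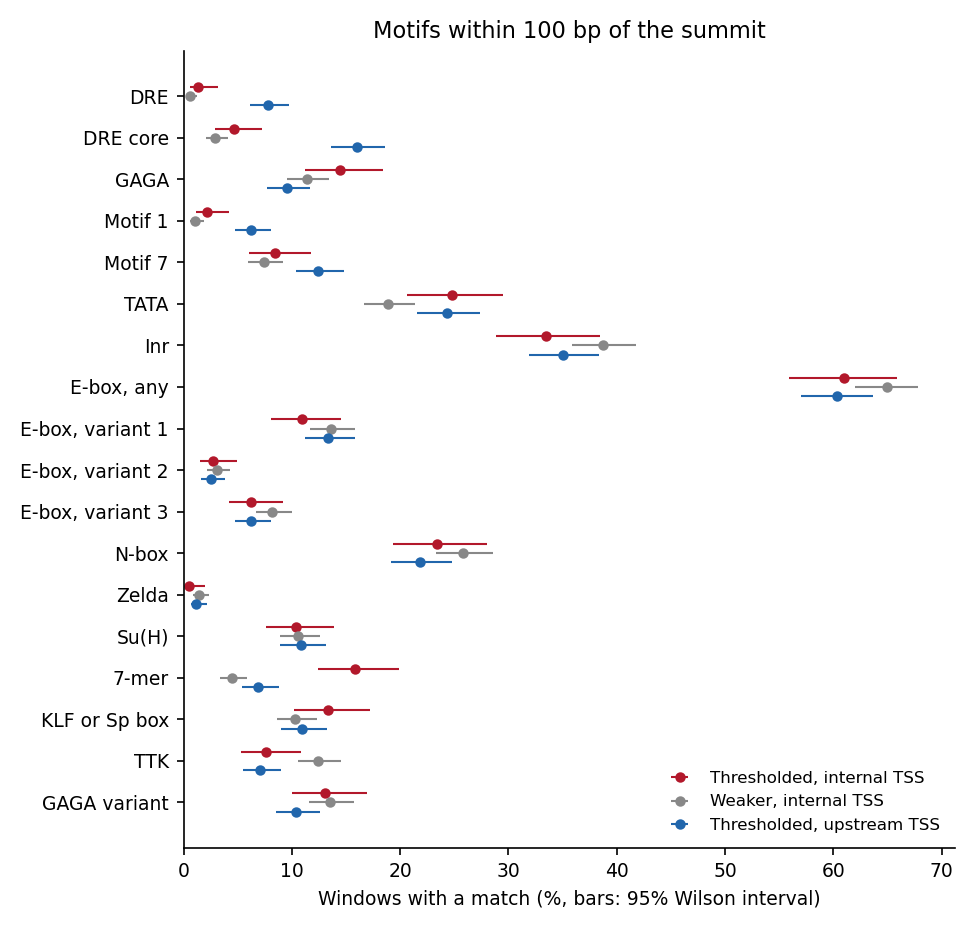
Share of 201-bp windows (%) with each of the 18 motifs, for members, weaker internal peaks and upstream-promoter peaks, with 95% Wilson intervals as bars. The row named 7-mer is ACAGTGG, variant 1 of the E-box is CAGCTG, variant 2 is the form CACGTG, and variant 3 is the form CAGGTG. The row named Motif 7 counts the letters CANCCCT. Members stand above both other sets in the 7-mer row, at 15.8% against 4.44% and 6.92%.

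Members were found in genes of many developmental pathways. Of the 1862 protein-coding genes with an isolated internal TSS, 306 (16.4%) had a member. The 15 gene lists hold 118 such genes, of which 35 (29.7%) had one. The lists were written with earlier results of these data known, so the counts are a description.

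Receptor tyrosine kinase signalling had members in 5 of 10 genes. They were spi, the FGF receptor htl, its adaptor stumps, and the ETS factors aop and pnt. The second peak of spi had 110.6 in replicate 1 and 116.6 in replicate 2. Pnt was weak, with 49.2 and 27.0, and its summit lay 50929 bp downstream of the first TSS. In the Notch list 3 of 5 genes had one. The corepressor gro had 276.2 and 206.2, at ranks 108 and 103, the Notch inhibitor numb had 78.3 and 62.8, and the ubiquitin ligase gene neur had a pooled signal of 101.8.

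In the Wingless and Hedgehog list 2 of 6 had one, the kinase gene sgg (224.0 and 159.6) and the Wnt receptor gene fz2 (77.5 and 70.8). No gene of the 6 of the Dpp list, and none of the 9 homeodomain genes, had a member. Pooled peaks of the class were listed in 3 and 6 of them. The share over all genes with an isolated internal TSS was 16.4%. With lists this small, no depletion can be read from these counts.

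Among kinases 5 of 13 genes had one, with Btk, a Tec-family tyrosine kinase, highest (228.1 and 165.5). Genes of RNA-binding proteins had one in 5 of 16, led by mub (133.9 and 80.9), whose summit lay 4 bp from its TSS. Cytoskeleton and junction genes had one in 5 of 12, led by pod1, a coronin (123.1 and 91.0), and shot, a spectraplakin linking actin and microtubules (123.0 and 56.2).

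BTB zinc finger genes had one in 3 of 7, lola (120.1 and 84.6), ttk (71.4 and 64.6) and psq, which ranked 4259 in the pooled list. Nuclear receptor genes had one in 2 of 11, Eip75B and Hnf4. Axon guidance had 2 of 3, Lar (54.2 and 75.3) and Sema1a (55.6 and 40.2). Ion channels and synapse genes had 1 of 10, Nrx-1, a neurexin (94.1 and 53.3). Chn was the member among 2 C2H2 zinc finger genes, and pnt the member among 6 glial genes.

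The limits of the rule fall within a continuous range. The farthest member from its TSS was at CG42336, 500 bp away, with a signal of 83.8, and the nearest summit left out was at Pino, 501 bp away, with 116.5. The weakest member, at Ptpmeg, had 71.45, and the strongest peak below the threshold in the class, at Tm1, had 71.37. The start site nearest to a first one was at l(3)L1231, 519 bp downstream, and the farthest that counted as upstream was at isoQC, 496 bp. The isolation limit kept cnn, with another gene's TSS 1044 bp away, and left out Hmt4-20, at 986 bp.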

How the data were processed

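Chromatin of the 2 replicates was sonicated to 200 to 800 bp, per the labels. Peak calling was run on each replicate and on the pool of both, and an IDR threshold was then applied, per the deposited inventory files. Aligner, peak caller and versions were not given in the sources used here. Each peak's signal is the caller's own value, deposited by the authors with no stated normalization, and was used within a list only. Depth is unknown, since read counts are not in the lists. The thresholded set was the 4537 strongest pooled peaks, unchanged. The dm3 lists were not used.

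Summits on dm6 were annotated with Ensembl release 115 (BDGP6.54), and sequences were read from the Release 6 genome. Members were found by the position rule given in the report. A replicate summit was matched within 100 bp. Motifs were searched in 201-bp windows on both strands. Medians have exact order-statistic intervals and the GC difference a normal one. No p-value was computed, since peaks are not replicates of a condition.

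The members, lists and motifs were chosen with earlier results of these data known. Named genes are the 12 members of highest signal, the 5 farthest downstream, the 5 genes with most members, the 2 strongest of each list, chn, and those nearest each limit. Further list members, and members named as examples, were added after their values were seen. The result of 1 gene list, which stays in the counts over all lists, and 1 sequence are not reported here. Alternatives covered the 1000 strongest peaks, each replicate alone, other distances, isolation, backgrounds and windows, and 1 summit per gene. The interval and class rules were tested on simulated data. Computation used Python 3.11.15, numpy 2.4.6, pandas 2.3.3, scipy 1.17.1 and matplotlib 3.10.9.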

Additional observations from a re-analysis of the deposited data

How the results depend on the processing

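Against weaker peaks, the main shares (class share, summit side, share within 100 bp of the TSS, coding share, start codon, first promoter and GC) kept their direction and their side of 0 under the alternatives run on them. The upstream share of summits, for example, differed from weaker peaks by 15.1 to 33.2 points over 9 settings. ACAGTGG differed by 3.68 to 14.2 points over 17 alternatives. Part of these were subsets chosen after seeing the data. Those with windows 400 bp beside the summits compared members with their own flanks, not with weaker peaks. The 7-mer was taken from these same peaks, so this range is not independent evidence. The share of members above the median signal differed from upstream-promoter peaks by -0.57 to 5.51 points, with intervals that took in 0. With the 1000 strongest peaks there were 102 members, 12 listed genes with one, and 6.92% of internal summits in that set against 5.13% of upstream ones, a difference of 1.797 points (0.38 to 3.36). With all thresholded peaks and 1 summit per gene, the difference in the share that passed was 6.31 points. Internal genes had more summits to choose from, and what this adds was not tested. Among the 1000 strongest, the share ranked highly by both replicates was 96.1% of 102 members and 100% of 185 upstream-promoter peaks, a difference of -3.92 points (-9.65 to -0.79). Within 250 bp of a TSS there were 214 members. The number of motifs whose interval against weaker peaks left out 0 was 3, and it was 1, ACAGTGG, with the strongest weaker peaks alone. Leaving out a replicate gave 1 to 4 motifs, with 1 (ACAGTGG again) without replicate 2. In alternatives chosen after seeing the data, TATAAA differed by -6.14 points and AGGAC by 0.40 in windows under 40% GC, and CGAGAG by 7.36 in windows of 40% or more, while CGAGAG differed by -8.60 with the 1000 strongest peaks. The cause of these changes was not tested. The X share against weaker peaks had intervals that took in 0 in 5 of 9 settings. Restricting to protein-coding transcripts changed no value. No paired analysis was possible because there was 1 group. Unknown depth limits what a missing peak can show.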

Other observations

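Further motif values stand outside the comparisons above and were picked after they were seen. In windows of 40% GC or more the KLF or Sp box, CCACCC, stood in 39 of 156 members and 97 of 758 weaker internal peaks, a difference of 12.2 points (5.55 to 19.9). Over all windows it stood in 13.4% of members, against 4.09% of windows centred 400 bp downstream of the same summits and 7.36% of those 400 bp upstream. Motif 1 in the windows of higher GC stood in 4.49% of members and 0.66% of weaker peaks, 3.83 points apart (1.37 to 8.33). Under 40% GC it stood in 1 of 211 members and 6 of 279 weaker peaks, a difference of -1.68 points (-4.17 to 0.78). The GAGA repeat in windows under 40% GC stood in 10.4% of 211 members and 4.30% of 279 weaker peaks, 6.12 points apart (1.52 to 11.3).

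Genes with a member spanned a median of 16234 bp (interval 12933 to 18458), against 12942 bp (11403 to 14298) for genes with a weaker internal peak, and both sets had a median of 3 TSSs. A TSS of a noncoding RNA gene lay within 500 bp of 16 members, so for these the start site in question is not settled by position.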
